A study of Mus musculus with 11 samples.

Results

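Type I collagen is assembled from the products of Col1a1 and Col1a2, which encode its alpha1 and alpha2 chains, and the transcripts of both genes were followed here through 11 mouse tumor cell lines. Both were taken by name from the deposited table, 2 of 28284 genes listed by symbol. They were chosen because earlier results of these counts had shown an uneven ratio of the chains, in particular in libraries 6 and 10, so the levels and ratios below are a description and carry no test.

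The lines were grown from OvTrpMyc mice, which carry 1 copy of a transgene at the Trp53 locus. In it, the Ovgp1 promoter, active in the nonciliated epithelium of the fallopian tube, drives mutant p53 (R270H) and Myc. All mice that gave the lines had this genotype, and neither wild-type mice nor treated cultures are among them. A line can lose an allele that its mouse carried, and the Trp53 alleles of the lines were not analysed here. The study's PCR genotyping of the lines gave mutant bands without wild-type bands, which it took as loss of the wild-type allele. By the study's methods, the tumor cells of F361 no longer expressed the mutant copy. The lines came from 7 mice: 7 came from ovaries, named by mouse and side (ROV and LOV), with both sides for mice F318 and F364 and ROV alone for F319, F326, and F339. Another 2 were grown from the uterus of F319 and of F333, 1 from a splenic tumor of F326, and 1 from a peritoneal tumor of F361. The labels give the cell type of every line as ovarian cancer, the uterus lines included. Ages of these mice are not given in the sources used here. Tissue was minced and the outgrowing cells passaged, so a line is a culture from dissected tissue, not a selected clone, and each was sequenced as 1 polyA library. The study's methods describe excising both ovaries and fallopian tubes, and do not state whether the tubes were kept apart from the ovary cultures.

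The alpha1 and alpha2 chains fold in the endoplasmic reticulum into a triple helix of 2 alpha1 chains and 1 alpha2 chain, and the helices are secreted and packed into the fibrils that give connective tissue its strength. Fibroblasts, osteoblasts, and other mesenchymal cells are the main producers, and epithelial cells normally make little. Without alpha2 chains, 3 alpha1 chains can join into a homotrimer, a form that tumor cells and some fibrotic tissues are known to make.

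Totals ranged from 13580525 to 27044598 counts. Genes of adult skeletal muscle fibers (30 of a list of 31 were found) took 8.75% to 16.2% of the counts in libraries 1 to 7 and 0.265% to 1.45% in libraries 8 to 11, the set made up of both uterus lines, F318 LOV, and F339 ROV. Of the epithelial markers, Epcam was at most 2.12 CPM and Cdh1 at most 3.68 CPM, where CPM is the count scaled to a library total of 1000000. The 10 epithelial markers summed to 3.54 to 159 CPM in libraries 1 to 7, with the top value in F319 ROV, and to 10.6 to 43.6 CPM in libraries 8 to 11. The 10 fibroblast markers, which include Pdgfra, Thy1, and Vim, summed to 756 to 4794 CPM and 7257 to 8868 CPM, and Vim was detected in every line. Of the same list, Dcn and Lum, which encode proteoglycans of the fibril surface, went the other way, with Dcn between 160 and 323 CPM in the first set of libraries and between 12.1 and 31.8 CPM in the second. The keratins of the list were higher in some lines, most of all in F319 ROV, where Krt18 was at 67.9, Krt8 at 52.7, and Krt19 at 21.7 CPM, and Krt7 was higher than in the 6 other libraries numbered 1 to 7 (at most 1.83 CPM). Pax8, a marker of fallopian tube epithelium, was also highest in F319 ROV, at 3.04 CPM against 0.259 CPM or less in the other lines. Elsewhere Krt18 reached 39.9 CPM in F364 ROV, Krt19 reached 17.2 CPM in F318 LOV, and Krt7 reached 16.6 CPM in F319 uterus and 40.5 CPM in F333 uterus. Epcam and Cdh1, which define epithelial cells, were low but detected in several lines. As these are bulk libraries, fewer collagen-making cells and less collagen RNA per cell cannot be told apart.

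Col1a1 lies on the plus strand of chromosome 11 of GRCm38 from 94936224 to 94953042, and Col1a2 on the plus strand of chromosome 6 from 4504814 to 4541544. Their principal GENCODE M21 transcripts are 5930 and 5348 bases long, with coding sequences of 4359 and 4116 bases. Of the start region of Col1a2, the gene whose transcript nearly vanished in 1 line, 3 stretches of 30 bases are shown with a motif in capitals. The first 2 hold a CCAAT box, the site of the factor NF-Y, and the third a GC box, GGGCGG, the site of Sp1-type factors. The sequences are from RefSeq (GRCm38.p6), read on the plus strand.
chr6:4505497-4505526: aaaagaatggaaCCAATttaagaagccccg
chr6:4505606-4505635: cctagccctcccATTGGtggagacgttttt
chr6:4505401-4505430: aagggcgagagaGGGCGGgtggctggggag
The CCAAT box in the first stretch begins 109 bases before the annotated RefSeq start. The box in the second stretch is on the opposite strand (ATTGG) and begins at the start itself. This RefSeq start, at 4505618, differs from the first base of the gene given above (4504814), so all 3 stretches lie inside that span. Over 27025 promoters of the same length (250 bases before to 50 after the start), 37.9% held CCAAT and 35.9% held GGGCGG on either strand, so both motifs are common. The matches are descriptions of the letters, and no binding was measured.

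Col1a1 was among the most abundant transcripts in 5 lines and scarce in 1. It was at 11637 CPM in F339 ROV (95% Wilson interval 11596 to 11679), 9823 in F333 uterus, 7431 in F319 uterus, 7228 in F318 LOV, and 5592 in F318 ROV. It was at 2247 CPM in F326 splenic tumor, 1512 in F319 ROV, 354 in F361 peritoneal tumor, 259 in F326 ROV, 248 in F364 LOV, and 34.8 in F364 ROV (32.0 to 37.9). No other gene had more counts than Col1a1 in either uterus line, where it took 0.743% and 0.982% of the library. In F364 ROV it was gene number 4783 by count. From the highest to the lowest line, the level of Col1a1 differed 334-fold. In the order of the levels, the counting intervals of neighbors overlapped in 1 case, F326 ROV and F364 LOV. These intervals do not cover the spread between cultures of a line, which was not measured.

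Col1a2 was high where Col1a1 was high in most lines, but not in the lines of mouse F319. It was at 7760 CPM in F333 uterus, 6109 in F318 LOV, 3672 in F318 ROV, 3087 in F339 ROV, and 1337 in F326 splenic tumor. It was at 415 CPM in F361 peritoneal tumor, 317 in F326 ROV, 132 in F364 LOV, 64.7 in F319 ROV (95% Wilson interval 61.5 to 68.1), 11.8 in F364 ROV (10.2 to 13.6), and 5.21 in F319 uterus (4.42 to 6.15). The last value rests on 141 counts, well above the 3 counts taken as the limit of detection, so the transcript was still detected. From the highest to the lowest line the level of Col1a2 differed 1488-fold, and no counting intervals of neighbors in this order overlapped. In F319 uterus, Col1a1 was gene number 1 by count and Col1a2 gene number 11032.

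**Figure D1:**
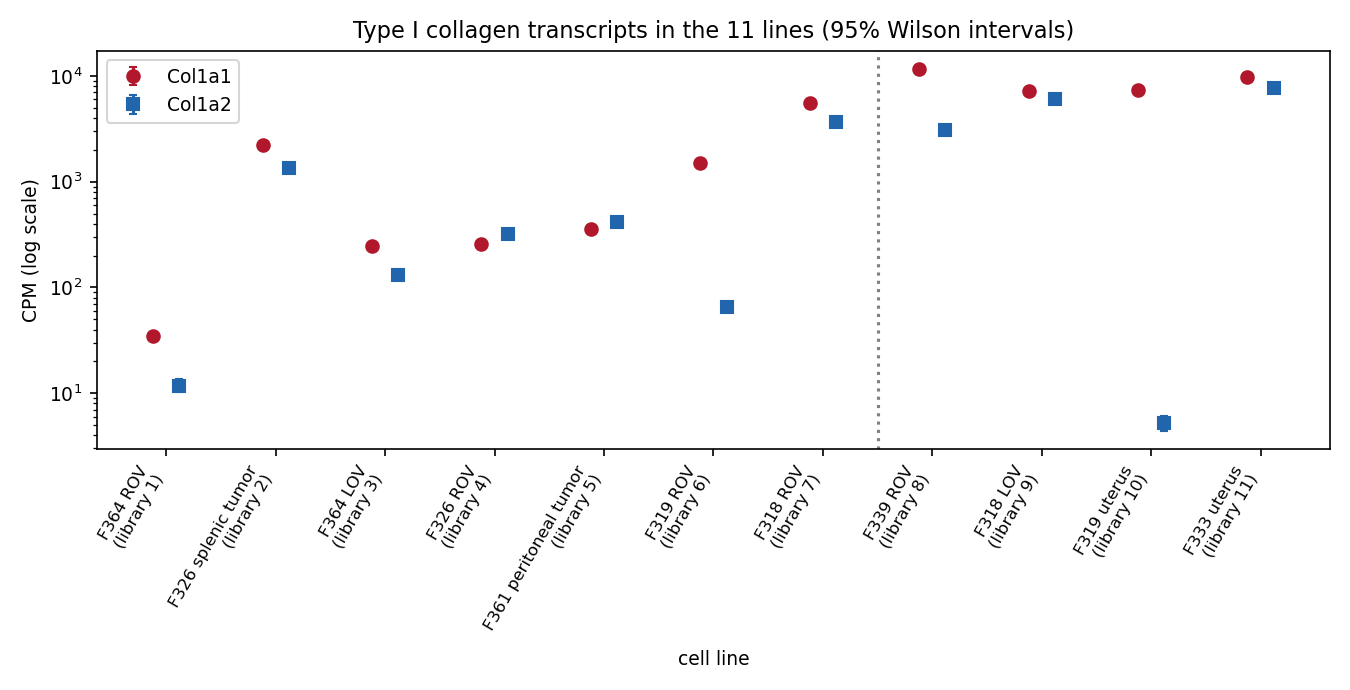
Level of Col1a1 (circles) and Col1a2 (squares) in each line, in CPM on a log scale, with 95% Wilson intervals that are mostly smaller than the symbols. The dotted line divides libraries 1 to 7 from libraries 8 to 11, and the wide gaps between the symbols are in F319 ROV (1512 against 64.7 CPM) and F319 uterus (7431 against 5.21 CPM).

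Both genes were higher in most libraries of the second set. Every library numbered 8 to 11 had more Col1a1 than every library numbered 1 to 7, with a lowest level of 7228 CPM against a highest of 5592 CPM. Over the 18554 genes past the filter on low counts, 22.9% separated in this direction and 15.4% in the other (4253 and 2866 genes), a split that turned to 3189 higher and 3626 lower with TMM-scaled library sizes. The gap in Col1a1 remained with TMM, at 6071 against 5206 CPM, and it was also present with DESeq2 size factors and with the muscle genes left out of the total. The median gene was higher by 0.17 on the log2(CPM + 1) scale in libraries 8 to 11, and by 0 after TMM scaling. Col1a2 did not separate, as F319 uterus had the lowest of all 11 levels and F318 ROV (library 7) was at 3672 CPM, above F339 ROV (library 8) at 3087 CPM. The share of muscle fiber counts separated the same libraries in the opposite direction, and its part in the difference was not tested. Without the muscle genes in the total, Col1a1 in F364 ROV was at 41.2 in place of 34.8 CPM and in F339 ROV at 11777 in place of 11637 CPM.

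To compare the chains with each other, the level of each was divided by the length of its principal transcript. Col1a1 then ranged from 5.87 to 1962 CPM per kilobase, and Col1a2 from 0.975 to 1451. The ratio of Col1a1 to Col1a2 was 0.737 in F326 ROV, 0.771 in F361 peritoneal tumor, 1.07 in F318 LOV, 1.14 in F333 uterus, 1.37 in F318 ROV, 1.52 in F326 splenic tumor, and 1.69 in F364 LOV. It was 2.66 in F364 ROV (95% interval 2.25 to 3.14, counting error only), 3.40 in F339 ROV (3.37 to 3.43), 21.1 in F319 ROV (counting interval up to 22.2), and 1285 in F319 uterus (1090 to 1516). The median over the 11 lines was 1.52. In 7 lines the ratio was below the value of 2 that the heterotrimer holds, in 4 it was above, and in none did the counting interval include 2. The value of 2 is that of the protein, and transcripts need not match it, since the chains can be translated and degraded at different rates.

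These counts of lines depend on the length used. With coding lengths, or with no length correction, 4 lines were again above 2. When the exons of all annotated transcripts were merged, which adds retained introns and brings Col1a2 to 12426 and Col1a1 to 6563 bases, 9 lines were above 2 and the median ratio was 3.18. The order of the lines is the same under every length, because 1 factor multiplies all ratios.

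The ratio can be restated as the share of 1 transcript that exceeds a 2 to 1 supply. In F319 uterus, 99.8% of the Col1a1 transcripts were in excess of 2 for each Col1a2 transcript, and in F319 ROV 90.5% were. In F339 ROV the excess was 41.2% and in F364 ROV 24.9%. In the other 7 lines Col1a2 was the transcript in excess, by 15.3% in F364 LOV to 63.1% in F326 ROV. These shares hold for the principal transcript lengths, and with merged exons Col1a2 was in excess in only 2 lines. This is arithmetic on transcripts, and neither chain was measured as protein here.

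**Figure D2:**
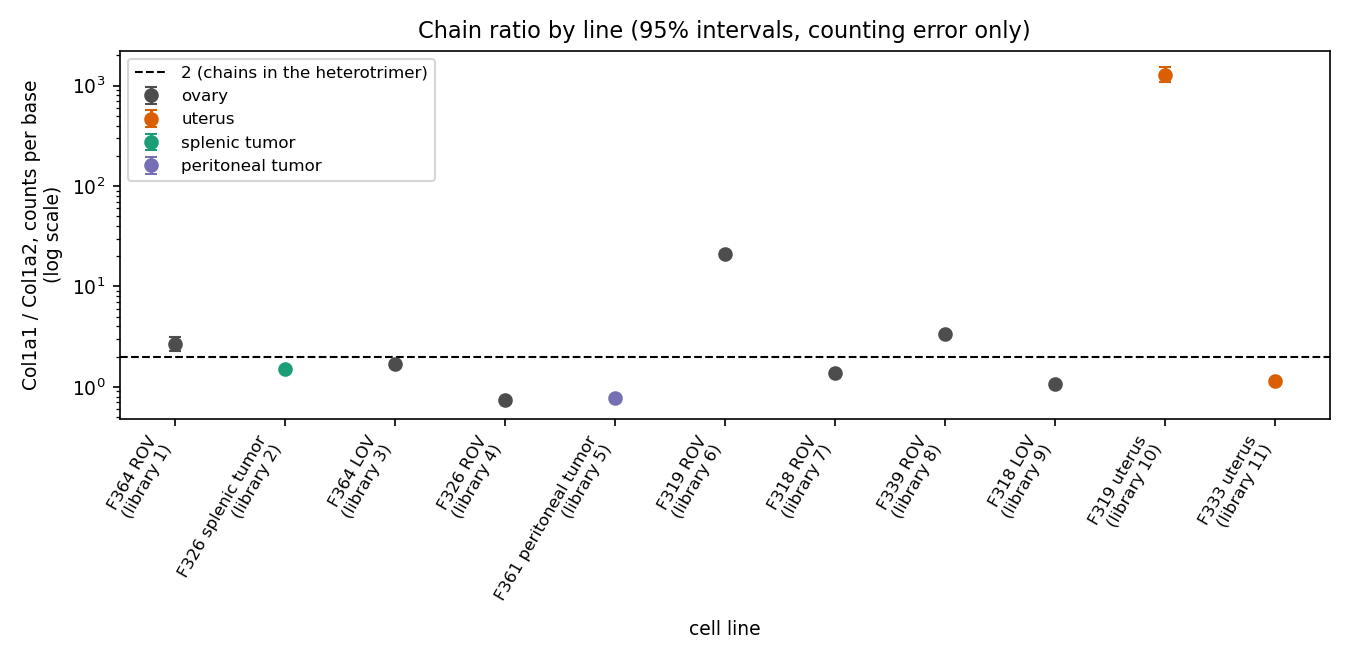
Ratio of Col1a1 to Col1a2 counts per base in each line, on a log scale, colored by organ, with 95% intervals for counting error. The dashed line is the 2 to 1 ratio of the chains in the heterotrimer, and F319 uterus at 1285 and F319 ROV at 21.1 stand far above the 9 other lines, which lie between 0.737 and 3.40.

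Both lines with the highest ratios were from 1 mouse, F319, but they differed in how the ratio arose. In F319 uterus, Col1a1 was at 7431 CPM, within the 7228 to 11637 CPM of the 3 other libraries numbered 8 to 11, while Col1a2 was 592-fold below the lowest of them. In F319 ROV, Col1a1 was 4.27-fold above the next lower line, F361 peritoneal tumor, and Col1a2 was 2.04-fold below the next higher line, F364 LOV. Its Col1a2 level of 64.7 CPM was above that of F364 ROV (11.8 CPM), so it was the second lowest of libraries 1 to 7. Relative to the median of the other 6 libraries numbered 1 to 7, Col1a1 was higher by 2.30 in F319 ROV and Col1a2 lower, with a difference of -2.48, on the log2(CPM + 1) scale. Among 18554 genes, 0.194% had their 2 lowest levels in both F319 lines, and neither chain was among them. Between the F319 lines, Col1a1 was 4.92-fold higher in F319 uterus and Col1a2 was 12.4-fold higher in F319 ROV, so the chains moved in opposite directions there.

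In the 3 other mice with a pair of lines, the chains moved together. Both were lower in F364 ROV than in F364 LOV, Col1a1 by 7.12-fold and Col1a2 by 11.2-fold. Both were higher in F326 splenic tumor than in F326 ROV, Col1a1 by 8.68-fold and Col1a2 by 4.22-fold. Both were higher in F318 LOV than in F318 ROV, by 1.29-fold and 1.66-fold, although these libraries fall on different sides of the muscle fiber divide. The ratio differed between lines of the same mouse by 1.29-fold in F318, 1.57-fold in F364, 2.06-fold in F326, and 61.0-fold in F319. Each line is 1 library, so no difference within a mouse has a replicate check.

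Over the 9 lines from the other mice, the ratio of the chains varied 4.61-fold, while Col1a1 itself varied 334-fold. Over all 11 lines the count ratio of type I varied 1744-fold, more than that of 3 other pairs of collagen chains, but without the F319 lines it varied less than that of type V. The count ratio of Col4a1 to Col4a2, the chains of basement membrane type IV collagen, varied from 1.11 to 1.83 over the 11 lines and was 1.33 in F319 uterus and 1.74 in F319 ROV. That of Col6a1 to Col6a2, of beaded-filament type VI collagen, varied from 0.914 to 2.44, with 0.960 in F319 uterus. That of Col5a1 to Col5a2, of type V collagen, which is built into type I fibrils, varied 8.01-fold with or without the F319 lines, from 0.178 in F364 ROV to 1.42 in F339 ROV, with 0.870 in F319 uterus. These ratios are of counts without a length correction, and the pairs were chosen after the values of type I were seen.

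**Figure D3:**
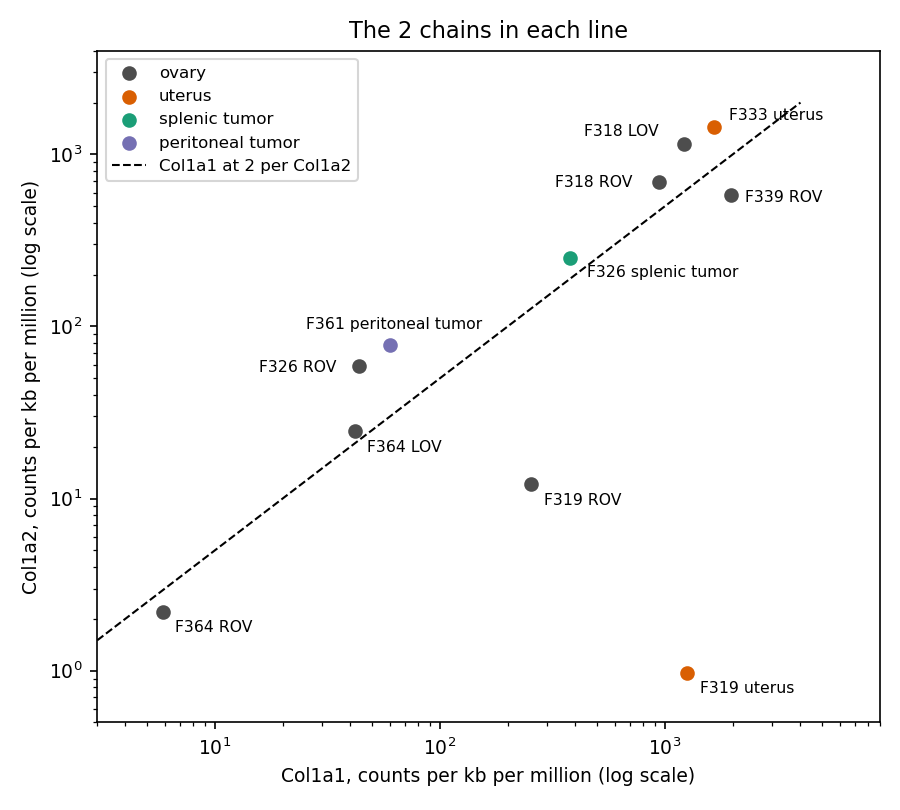
Level of Col1a2 against Col1a1 in each line, both in CPM per kilobase on log scales, colored by organ. The dashed line marks 2 Col1a1 for 1 Col1a2, and 9 lines lie near it over a 334-fold range of Col1a1 while F319 ROV and F319 uterus lie below it.

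Within libraries 8 to 11, Col1a2 was also the gene with the steepest drop in F319 uterus. Of the 1801 genes at 100 CPM or more in each of the 3 other libraries, 2 (0.111%) were at least 100-fold lower in F319 uterus, which were Col1a2 with 592-fold and Hs6st2, a heparan sulfate sulfotransferase, with 429-fold. The next was Creb3l1, a transcription factor of the endoplasmic reticulum known to act on the Col1a1 promoter in bone, with 10.3-fold. A level that is the lowest of the 4 libraries is common by itself, at 20.7% of all genes tested. Since Col1a2 was chosen on this contrast, its rank is a description.

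The near absence of Col1a2 did not extend to the genes around it. Of the 10 nearest genes past the filter, 5 on each side, 5 were below the median of the 3 other libraries in F319 uterus and 5 above. Their median difference was 0.0027 on the log2(CPM + 1) scale, against -9.94 for Col1a2. Casd1, which encodes a sialic acid acetyltransferase and is the next gene downstream, was at 31.3 CPM in F319 uterus and at 21.3 to 42.5 CPM in the 3 others. Sgce, which encodes epsilon-sarcoglycan, was at 63.7 CPM against 35.4 to 112 CPM, and Bet1, a vesicle transport gene upstream, was at 38.0 CPM against 26.4 to 37.9 CPM. Peg10, an imprinted gene derived from a retrotransposon, was at 106 CPM against 44.7 to 484 CPM. The lowest neighbor was Ppp1r9a, with a difference of -2.04 in F319 uterus, but it was also low in F333 uterus (0.111 and 0.186 CPM). In F319 ROV the neighbors lay between -0.63 and 0.87 of the other libraries numbered 1 to 7, with a median of -0.04. Around Col1a1 on chromosome 11, the 10 nearest genes had a median difference of 0.014 in F319 uterus, where Col1a1 itself was at -0.40.

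**Figure D4:**
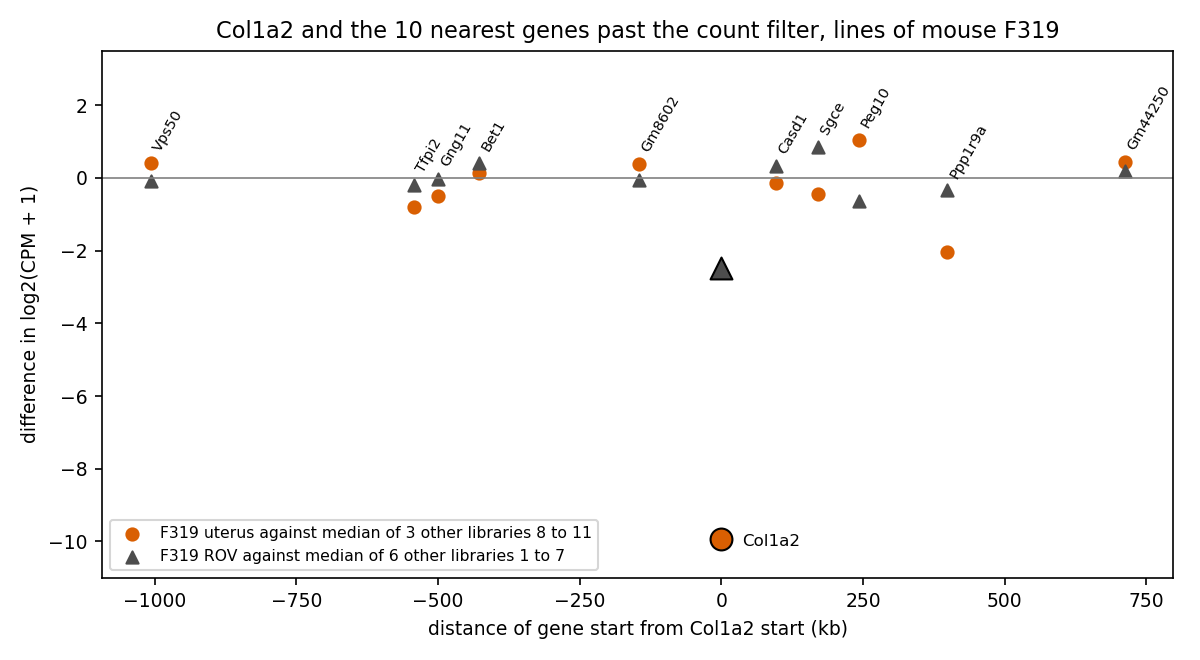
Difference in log2(CPM + 1) of Col1a2 (large symbols at 0 kb) and the 10 nearest genes past the filter that lie outside it (small symbols), plotted by distance from the start of Col1a2 in kb. Circles compare F319 uterus with the median of the 3 other libraries numbered 8 to 11, triangles compare F319 ROV with the median of the 6 other libraries numbered 1 to 7, and Col1a2 lies at -9.94 and -2.48 while its neighbors scatter around 0.

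A second measure came from the first intron of Col1a2. The table lists Gm43921, an annotated gene of unknown kind on the same strand (chromosome 6, 4506087 to 4507878), which lies wholly between the first and second exon of Col1a2, so that reads of unspliced Col1a2 RNA there would be counted on it. Gm43921 had 61 counts in F318 LOV, 45 in F333 uterus, 21 in F339 ROV, and 18 in F318 ROV, and 2 in F361 peritoneal tumor. It had 0 counts in the 6 other lines, among them F319 uterus and F319 ROV. In the 4 lines with 18 or more counts, this was 0.267 to 0.436 counts for every 1000 counts of Col1a2. A count of 0 in F319 uterus allows up to 0.111 CPM, against 0.823 to 2.66 CPM in the 3 other libraries numbered 8 to 11. A count of 0 was not limited to lines with little Col1a2, since F326 splenic tumor had 0 counts of Gm43921 with 21122 counts of Col1a2. Whether a transcript of Gm43921 in its own right adds to these counts was not tested.

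Between organs, the levels of the chains overlapped. In the 7 ovary lines Col1a1 ranged from 34.8 to 11637 CPM with a median of 1512, and in the 2 uterus lines it was 7431 and 9823 CPM. Col1a2 ranged from 11.8 to 6109 CPM in the ovary lines with a median of 317, and the uterus lines were below and above that whole range, at 5.21 and 7760 CPM. The ratio was 0.737 to 21.1 in the ovary lines and 1.14 and 1285 in the uterus lines.

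Genes that make, process, and bind type I collagen were then taken from lists by role. In the test of the 2 uterus lines against the 7 ovary lines (edgeR's quasi-likelihood test, Benjamini-Hochberg adjusted p under 0.05), 0 of 17446 genes (0%) passed, and therefore none of the lists. At an unadjusted p under 0.05 there were 2308 genes (13.2%). With DESeq2, 1297 genes (7.43%) passed. Of the list genes tested, the unadjusted threshold was passed by 3 of 15 genes for prolyl and lysyl modification, 1 of 12 for folding and export, 2 of 12 for propeptide removal and crosslinking, 1 of 11 fibril partners, 0 of 8 receptors, 3 of 8 genes of degradation, and 10 of 34 regulators. DESeq2 passed P3h4 and Plod1, which act on prolyl and lysyl residues of the chains, and the regulator Klf4 as higher in the uterus lines. It passed Tmem38b, an ion channel of the endoplasmic reticulum, Dcn (decorin, which coats fibrils), and the regulators Smad3, Fli1, Cebpd, and Scx as lower. Both uterus libraries are among libraries 8 to 11, and with a term for the 2 sets of libraries (1 to 7 and 8 to 11) edgeR passed 0 genes. That fit contrasts the organs only within libraries 8 to 11, where the ovary lines are F318 LOV and F339 ROV. Cell type lists gave 0 genes by edgeR, and at an unadjusted p under 0.05 they gave 2 of 10 fibroblast, 1 of 6 epithelial, 8 of 29 muscle fiber, and 0 of 6 osteoblast markers. DESeq2 passed 16 of the 29 muscle fiber markers as lower in the uterus lines, Myh1, Ttn, Des, and Ryr1 among them, with Krt18 lower and Krt7 higher. The part of muscle RNA in the DESeq2 calls for collagen genes was not tested.

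Many genes of collagen modification and folding separated the libraries as Col1a1 did. Every library numbered 8 to 11 lay above every library numbered 1 to 7 in 11 of 15 genes of prolyl and lysyl modification and in 8 of 12 genes of folding and export, beside 22.9% of all genes. It did so in 4 of 12 genes of propeptide removal and crosslinking, 5 of 11 fibril partners, 3 of 8 receptors, 3 of 8 genes of degradation, and 11 of 34 regulators. With TMM-scaled library sizes these counts were 8 for modification, 6 for folding and export, 4 for propeptide removal and crosslinking, 5 for fibril partners, 2 for receptors, 3 for degradation, and 9 for regulators, beside 17.2% of all genes higher and 19.5% lower with that scaling. In the opposite direction, 1 modification gene (Colgalt2), 1 folding gene (Tmem38b), 2 fibril partners (Dcn and Lum), and 2 regulators (Nfyc and Scx, 4 regulators with TMM) lay lower in every library numbered 8 to 11, beside 15.4% of all genes. P4hb, the disulfide isomerase subunit of prolyl 4-hydroxylase, was at 254 to 835 CPM in libraries 1 to 7 and at 916 to 1458 CPM in libraries 8 to 11. Sparc, a collagen-binding matrix protein, was at 1497 CPM or less in libraries 1 to 7 and at 2999 CPM or more in libraries 8 to 11. Itgb1, the beta subunit of the collagen-binding integrins, was at 179 to 681 and 1008 to 2556 CPM, and Timp2, an inhibitor of matrix proteases, at 142 to 391 and 647 to 1335 CPM. Lox, which crosslinks the fibrils, was at 11.3 to 631 and 788 to 2263 CPM. Among the cell type lists, 4 of 10 fibroblast markers and 3 of 6 osteoblast markers were higher in every library numbered 8 to 11 (3 and 2 with TMM), as were 0 of 8 epithelial markers. Of the osteoblast markers, Runx2 was at 45.3 CPM or more in libraries 8 to 11 against 14.4 CPM or less. Sp7 and Phex separated near the limit of detection, at lowest against highest levels of 0.186 against 0.127 CPM and 0.666 against 0.633 CPM. The fibroblast marker S100a4 separated at 1.61 against 1.25 CPM. Bglap and Ibsp, also listed as osteoblast markers, did not pass the filter. The muscle fiber genes went the other way, with 27 of 30 lower in each of these libraries. The part of these cell types in the separation was not tested.

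In F319 uterus, the medians of the lists moved far less than Col1a2, a single gene chosen on this contrast. Many genes of the lists were the lowest of libraries 8 to 11. This was so for 8 of 15 modification genes, 6 of 12 of folding and export, 6 of 12 of propeptide removal and crosslinking, 5 of 11 fibril partners, 2 of 8 receptors, 4 of 8 of degradation, and 9 of 34 regulators, beside 20.7% of all genes. The median difference on the log2(CPM + 1) scale was -0.30 for prolyl and lysyl modification, -0.30 for folding and export, -0.63 for propeptide removal and crosslinking, -0.68 for fibril partners, 0.21 for receptors, -0.40 for degradation, and -0.02 for regulators, against 0.07 over all genes. Col3a1, the type III chain that copolymerizes with type I, was at 2931 CPM in F319 uterus and at 1988 to 4187 CPM in the 3 others. Fn1 (fibronectin) was at 5753 CPM against 5584 to 13779 CPM, and P4hb had its highest level there. P4ha3, a catalytic subunit of prolyl 4-hydroxylase, and Prrx2, a mesenchymal homeobox gene, also had their highest level of the 11 lines in F319 uterus, at 161 and 117 CPM. Ybx1, a regulator of the collagen genes, was at 916 CPM against 751 to 1271 CPM. Of the NF-Y subunit genes, Nfya was at 121 CPM against 53.6 to 85.9 CPM in the 3 others. Nfyb was at 31.6 against 34.6 to 47.4 CPM, and Nfyc at 29.7 against 28.3 to 33.6 CPM. Sp1 was at 129 CPM against 73.2 to 149 CPM. The NF-Y genes and Sp1 are named because their motifs are shown above. Low genes, named after their values were seen, were Creb3l1 at 19.0 CPM against 195 to 374 CPM, Mmp2 (a matrix protease) at 38.0 against 255 to 631 CPM, Adamts2 (which removes the amino propeptide of the chains) at 53.9 against 276 to 404 CPM, Tll1 (a protease of the same family as the carboxy propeptidase) at 0 counts against 3.32 to 35.7 CPM, Pcolce2 (an enhancer of that cleavage) at 2.40 against 27.0 to 44.9 CPM, and Thy1 (a fibroblast surface marker) at 0.148 against 3.90 to 82.3 CPM. Itga11, a collagen-binding integrin subunit, was at 19.3 CPM in F319 uterus, with 8.60 CPM in F318 LOV and 271 and 283 CPM in the other libraries of the set.

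**Figure D5:**
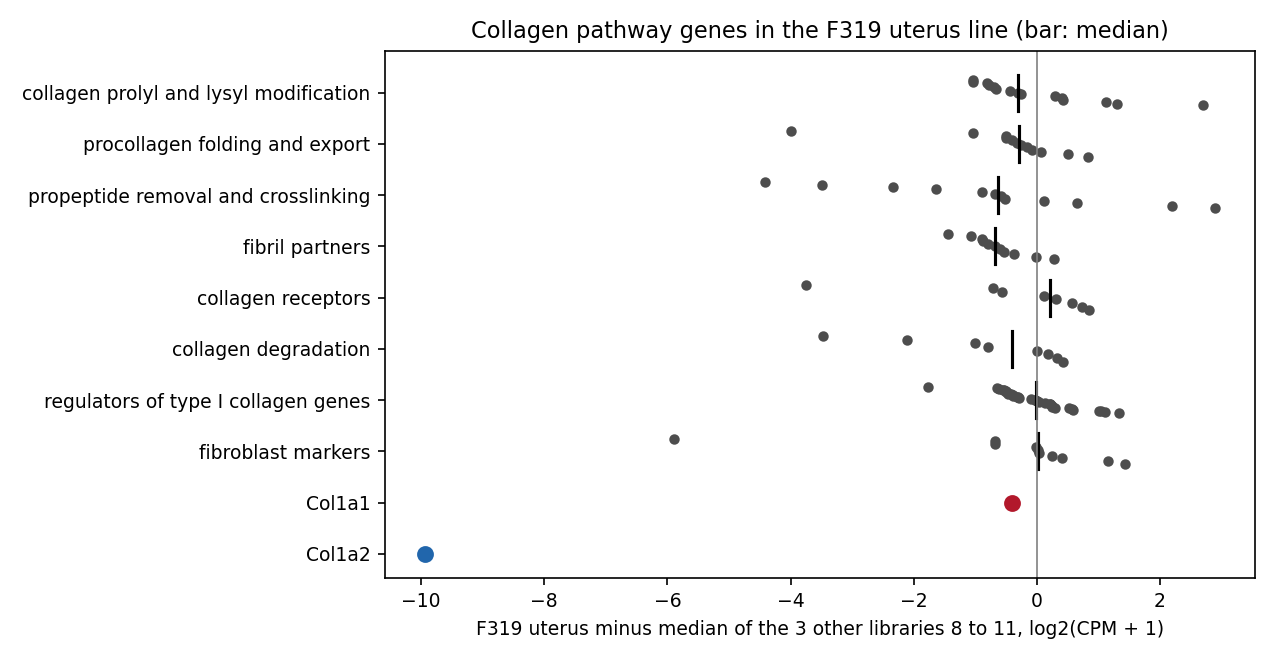
Difference in log2(CPM + 1) between F319 uterus and the median of the 3 other libraries numbered 8 to 11 for each gene of 8 lists (gray points, with a bar at the list's median), for Col1a1 and for Col1a2. The medians lie between -0.68 and 0.21, Col1a1 lies at -0.40, and Col1a2 at -9.94.

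In F319 ROV, the 7 collagen lists had median differences above 0 from the median of the 6 other libraries numbered 1 to 7, though F318 ROV was higher for genes such as Col3a1 (1592 against 562 CPM). These median differences were 1.18 for fibril partners, 0.67 for prolyl and lysyl modification, 0.43 for folding and export, 0.27 for propeptide removal and crosslinking, 0.83 for receptors, 0.69 for degradation, and 0.20 for regulators, against 0.12 over all genes. Of the cell type lists, the median was 2.43 for epithelial, -0.04 for fibroblast, 0.01 for osteoblast, and -0.17 for muscle fiber markers, and the part of these cell types in the chain levels was not tested. Postn (periostin), a fibroblast gene, was at 6.36 CPM, where the other libraries numbered 1 to 7 ranged from 2.16 to 657 CPM.

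The genes whose pattern was most like that of each chain were found by the root mean square difference between log2(CPM + 1) values over the 11 lines, after each gene's mean was subtracted. For Col1a1 the closest were Col3a1 (0.57), Col5a1 (0.66), Cd248 (0.82), Col6a1 (0.85), and Tnc (0.87), against a median of 2.58 over 18553 genes. Each of these 5 had its lowest level in F364 ROV, as Col1a1 did. For Col1a2 no gene came as close. Its nearest were Thy1 (2.16), Smoc1 (2.28), Hgf (2.35), Mmp2 (2.36), and Creb3l1 (2.40), against a median of 3.41. Of these, Thy1 had its lowest level in F319 uterus, as Col1a2 did. Col1a1 itself was only number 284 in the list for Col1a2, with 2.94, and Col1a2 was number 14659 in the list for Col1a1. The 11 lines include pairs from the same mouse and the divide between libraries 1 to 7 and 8 to 11, which all genes share.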

How the data were processed

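Bulk mRNA of 11 cell lines was analysed, 1 library per line. Per the study's methods, mapping used RNA STAR against GRCm38 and SAMtools RmDup took out PCR duplicates. The authors deposited raw counts per gene from featureCounts, whose strand setting is not given in the sources used here. Duplicate removal can lower the counts of very abundant transcripts such as Col1a1. Totals were 13580525 to 27044598, and 3 counts, the limit of detection, equal 0.111 to 0.221 CPM. Wilson intervals cover counting error only. Groups were read from titles and library numbers from descriptions.

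The members, lists, and named-gene rule were chosen with earlier results of these data known. The rule named the genes nearest in pattern to each chain, those beside it on the chromosome, the gene of each list with the highest median and the one with the widest range, and any list gene past the test. Genes named outside it, such as Hs6st2 and Gm43921, were chosen after their values were seen. Lengths were those of the principal GENCODE M21 transcript, a choice made after the lengths were seen. Uterus and ovary lines were compared with edgeR 4.0.16 (TMM, filterByExpr, R 4.3.3), checked on simulated data, and with DESeq2 1.42.0. Descriptions used Python 3.11.15 and pandas 2.3.3. P-values measure the spread between lines, some from the same mouse.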

Additional observations from a re-analysis of the deposited data

How the results depend on the processing

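Of 84 values recomputed under an alternative, 76 kept to the spread between lines, which is wide, or to 1.5 times the reported count. Among these, the median Col1a1 level was 354 CPM in libraries 1 to 7 alone and 8627 CPM in 8 to 11 alone, that of Col1a2 was 317 and 4598 CPM, and the median chain ratio was 1.52 and 2.27, or 1.21 with 1 value per mouse. With merged exons, a choice made after seeing the data, 9 lines in place of 4 had a chain ratio above 2. With TMM library sizes, 66 in place of 36 genes were lowest in both F319 lines. The uterus and ovary test passed 0 genes, 1297 with DESeq2, 2 without a filter on low counts, and 0 to 1 when a line was left out, with the 1 gene found without F333 uterus. The cause of these differences was not tested. Leaving out 1 line at a time gave a median chain ratio of 1.44 to 1.61, a median Col1a1 level of 1879 to 3919 CPM, and a median Col1a2 level of 366 to 876 CPM. The Col1a1 median of 2247 CPM moved by over 1.5 times to 3919 CPM without either F364 line, F319 ROV, F326 ROV, or F361 peritoneal tumor, and to 3552 CPM without F326 splenic tumor. The Col1a2 median of 415 CPM moved to 876 CPM without either F364 line, either F319 line, or F326 ROV, and to 827 CPM without F361 peritoneal tumor. With a pseudocount of 0.1, 3 of the 5 genes nearest to Col1a1 and 2 of the 5 nearest to Col1a2 were still among the first 5, as were 3 of the 5 nearest to Col1a2 with the mean subtracted within each set of libraries. With mouse as a replicate block, a fit added after seeing the data that compares the organs within F319 alone and takes its spread from the F318 and F364 pairs, 0 genes passed and 1501 had an unadjusted p under 0.05, against 2308 without the block in edgeR. Depth limits the intron counts of Gm43921. The Col1a2 level of F319 uterus rests on 141 counts of 1 library, and with 1 library per line the spread within a line is unknown.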
